A study of Mus musculus with 24 samples.

Results

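The 41 genes described here are interferon-stimulated genes of mouse skin. They were given as a list of names, chosen with earlier results of these data known. They make up 41 of the 18368 genes in the deposited expression table, and all 41 passed the filter on low values, so that 41 of the 14423 genes tested over the 24 libraries belong to the list. By role they comprise 4 transcription factors, 4 sensors of nucleic acids, 6 members of the oligoadenylate synthetase family, 5 IFIT and Mx genes, the ubiquitin-like modifier Isg15 with its protease Usp18, 11 other antiviral effectors, 2 PARP genes and 7 GTPases of the GBP and IRG families.

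Interferons are secreted proteins that signal through cell surface receptors and JAK kinases. Type I and type III interferons lead to a complex with STAT2 and IRF9 that binds a DNA motif called the interferon-stimulated response element (ISRE), whereas interferon-gamma acts mainly through another motif, the gamma-activated site (GAS). The genes downstream include sensors that detect viral nucleic acid, enzymes that block viral replication, and the transcription factors of the pathway itself. Skin cells and the leukocytes that enter a wound can both express them.

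The libraries came from full-thickness skin of CD1 mice, an outbred strain with no allele or transgene named in the labels. The animals were 7 weeks old, with the hair cycle synchronised in telogen, and carried 1 wound (cheek) or 2 wounds (abdomen and back) made with a 2 mm punch at a single site. At day 3, a 2 mm biopsy of the wound and 1 of adjacent uninjured skin were taken from each mouse, giving 4 unwounded and 4 wound libraries for each of the abdomen, back and cheek. Mice 1 to 4 of one site were different animals from mice 1 to 4 of another, so the 24 libraries represented 12 mice, and site was always a comparison between animals. The labels do not say whether a wound library held 1 or both wounds of a mouse.

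Expression was measured by RNA-seq and given as FPKM (fragments scaled to transcript length and to library size), so that levels can be compared between genes. Read totals are not in the sources used here. Library sums of FPKM ran from 490830 to 608888, 15781 to 16577 genes lay above 0, and no pair of libraries held identical values. The summed level of 6 interfollicular keratinocyte markers lay between 5516 and 18280 FPKM in every library and that of 6 fibroblast markers between 4083 and 17980 FPKM. In whole tissue, fewer cells of a type and less RNA per cell cannot be told apart.

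To show the regulatory letters that many of the genes have in common, their promoters were searched for the ISRE core GAAANNGAAA and for the GAS motif TTCNNNGAA, on both strands, in windows from 250 bases before to 50 bases after each gene start (RefSeq, GRCm38.p6). The windows of 31 members were found. Those of Oas2, Mx1, Mx2, Usp18, Dhx58, Rtp4, Zbp1, Iigp1, Parp9 and Parp14 were not. An ISRE core lay in 19 of the 31 (61.3%), against 3.99% of 27025 genes with a window, and a GAS match in 10 of the 31 (32.3%), against 9.55%. The stretches below each span 60 bases upstream of the start that the table gives, and are written 5′ to 3′ on the strand of the gene. They are shown as examples of the role groups described in the results, with Oas1g beside its close copy Oas1a. Capitals mark the ISRE core in the first 8 and the GAS match in Irf1, and a GAS match in Igtp that begins 45 bases before the start is left in lower case. On the opposite strand the ISRE core reads TTTCNNTTTC, as in Ifit1, Ifit3 and Gbp2.
Isg15: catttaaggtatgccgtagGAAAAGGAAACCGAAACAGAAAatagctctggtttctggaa
Ifit1: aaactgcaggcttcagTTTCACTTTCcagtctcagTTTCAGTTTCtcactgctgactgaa
Ifit3: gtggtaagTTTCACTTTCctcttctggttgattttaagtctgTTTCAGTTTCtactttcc
Oas1a: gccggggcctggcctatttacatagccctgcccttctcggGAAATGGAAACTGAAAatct
Oas1g: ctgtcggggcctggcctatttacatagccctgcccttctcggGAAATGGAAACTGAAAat
Gbp2: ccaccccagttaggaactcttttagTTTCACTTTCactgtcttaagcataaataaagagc
Irgm1: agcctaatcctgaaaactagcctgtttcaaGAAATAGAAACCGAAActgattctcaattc
Igtp: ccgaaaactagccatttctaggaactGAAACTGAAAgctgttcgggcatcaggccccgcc
Irf1: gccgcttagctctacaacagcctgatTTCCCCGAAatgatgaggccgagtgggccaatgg
These stretches lie at chr4:156200856-156200915, minus strand (Isg15); chr19:34640769-34640828, plus strand (Ifit1); chr19:34583365-34583424, plus strand (Ifit3); chr5:120907526-120907585, minus strand (Oas1a); chr5:120887614-120887673, minus strand (Oas1g); chr3:142620579-142620638, plus strand (Gbp2); chr11:48871421-48871480, minus strand (Irgm1); chr11:58199496-58199555, plus strand (Igtp); and chr11:53769898-53769957, plus strand (Irf1). The stretch of Ifit3 and part of that of Oas1a fall within the longest extent of these genes in RefSeq, which also lists starts farther upstream. The core occurs more than once, with or without overlap, in the stretches of Isg15, Ifit1, Ifit3, Oas1a, Oas1g and Irgm1. All 6 GTPase genes with a window held an ISRE core, whereas Irf7, Irf9, Oasl1, Oasl2, Ifi44, Cmpk2, Xaf1 and Samd9l held neither motif. The median wound effect, defined in the next paragraph, was 1.14 on the log2 scale over the 19 genes with an ISRE core and 1.07 over the 12 without. The motif did not divide strongly from weakly responding members, since the second group ranged from 0.62 to 2.38 and included Irf7. A match describes the letters of the window and not a bound site.

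The wound effect of a gene is the difference between wound and unwounded skin of the same mouse on the log2(FPKM + 0.5) scale, estimated for each site with the mouse as a block (limma, Benjamini-Hochberg adjusted over the 14423 genes, threshold 0.05). Averaged over the 3 sites, 40 of the 41 interferon-stimulated genes rose and none fell, in a setting where 62.7% of all tested genes were called and 33.3% were called higher. Their median effect was 1.2, against 0.02 over all tested genes. In the abdomen 40 members rose (32.9% of all tested genes called, 16.9% called higher), in the back 31 rose (45.9% called, 28% higher) and in the cheek 12 rose (36.6% called, 19.7% higher). No member fell at any site, and the median effect was 1.78 in the abdomen, 1.09 in the back and 0.73 in the cheek. At an adjusted p under 0.001 the counts were 7, 0 and 0, against 4.96%, 14.4% and 8.69% of all tested genes.

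**Figure D1:**
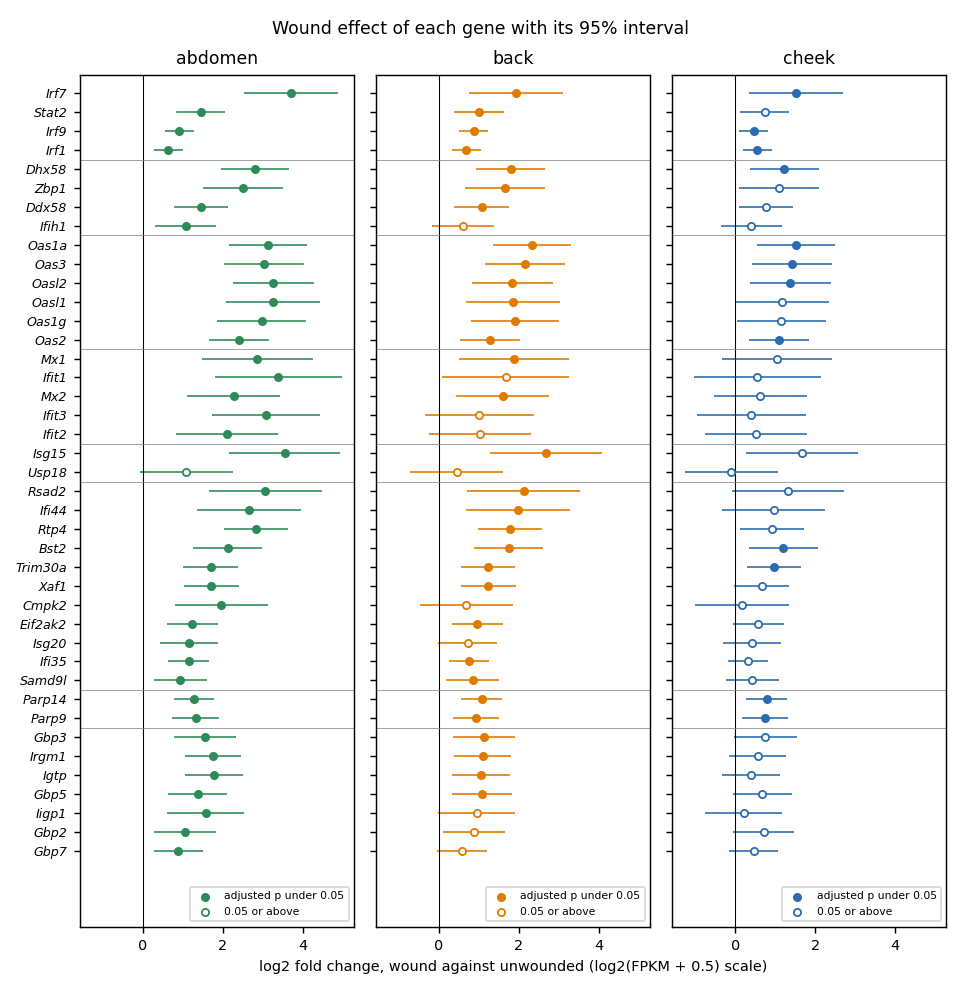
Wound effect of each of the 41 genes in abdomen, back and cheek, as the log2 fold change of wound over unwounded skin on the log2(FPKM + 0.5) scale (x axis), with genes on the y axis grouped by role and the limma 95% interval as a line. Filled points passed an adjusted p of 0.05. The points move towards 0 from the left panel to the right, with 40, 31 and 12 filled.

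The counts depended on single mice and on how the spread was estimated. Without back mouse 3 the back count was 13 and without back mouse 1 it was 16, and the cheek count was 0 without cheek mouse 2, 3 or 4 and 19 without abdomen mouse 2. The share of all tested genes called in the same fits was 36.1% and 40.8% (back) and 24.2%, 26.9%, 35.2% and 35.8% (cheek). Without the mouse as a block the counts were 34, 20 and 0 in abdomen, back and cheek, against 28.1%, 41.5% and 31.7% of all tested genes. With each site fitted on its own 8 libraries they were 17, 32 and 26, against 26.1%, 45.3% and 30.4%, so that the abdomen then had the lowest count and the order of the sites turned over. The count of 40 for the mean over sites was 40 or 41 whichever mouse was left out, and the fit with 41 called 60.5% of all tested genes.

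Counted by mouse, 26 members were higher in the wound than in the unwounded skin of all 12 mice, as were 14.4% of all tested genes, and 8 members were higher in 11 mice (8.82% of all tested genes). The number of members higher in the wound was 41, 38, 40 and 41 in abdomen mice 1 to 4, 41, 39, 41 and 34 in back mice 1 to 4, and 29, 40, 40 and 41 in cheek mice 1 to 4. Of all tested genes, 46.2%, 51.3%, 48.4% and 50.6% were higher in the abdomen wounds of mice 1 to 4. The shares were 57.9%, 57.8%, 54.1% and 53.8% in the back and 58.4%, 59.5%, 43.2% and 41.5% in the cheek. Among the members the size differed far more than the direction. The median within-mouse difference was 2.76 and 2.63 in abdomen mice 1 and 4 but 0.41 in abdomen mouse 2, and it was 1.82 and 1.78 in back mice 1 and 3 but 0.49 in back mouse 4. In the cheek it was 0.24 in mouse 1 and lay between 0.76 and 0.98 in the other mice. Over all tested genes the same median lay between -0.08 and 0.12 in every mouse.

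**Figure D2:**
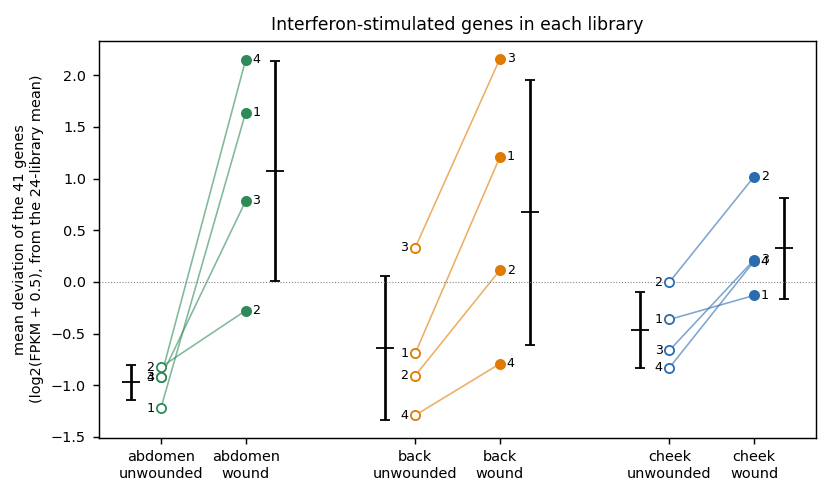
Mean deviation of the 41 genes from their 24-library mean (y axis, log2(FPKM + 0.5)) in each library, by site and state (x axis). Lines join the open (unwounded) and filled (wound) point of a mouse, digits give the mouse number, and black bars give the group mean ± SD over 4 mice. Every line rises, and abdomen wounds spread from -0.28 to 2.15 and back wounds from -0.79 to 2.16.

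Counts by role group stand beside the shares of all tested genes called higher, 16.9% in the abdomen, 28% in the back and 19.7% in the cheek. Among the transcription factors, all 4 rose in the abdomen and back and 3 rose in the cheek, and Irf7 stood well above the others. Irf7 encodes the factor that drives the transcription of type I interferon genes and is itself interferon-induced. In the abdomen its level was 6.51, 10.5, 8.34 and 7.78 FPKM in the unwounded skin of mice 1 to 4 and 159, 31.1, 117 and 269 FPKM in their wounds. The back gave 14, 21.1, 56.4 and 5.84 FPKM in skin and 119, 38.2, 383 and 13.1 FPKM in wounds, and the cheek 23, 18.9, 11.3 and 18.6 FPKM in skin and 38.6, 60.1, 45.6 and 62.3 FPKM in wounds. Every wound exceeded the skin of its own mouse, and wound and skin groups did not overlap in the abdomen and cheek, whereas the wounds of back mice 2 and 4 lay below the unwounded skin of back mouse 3. The wound effect of Irf7 was 3.70 ± 0.53 (SE) in the abdomen, 1.93 ± 0.53 in the back and 1.51 ± 0.53 in the cheek (adjusted p = 0.000714, 0.0132 and 0.0465). With Bst2 it had the highest mean level of all members.

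Irf1, an early interferon-gamma target that holds the GAS match shown above, changed little but regularly. Its levels were 21.7, 32.1, 25.5 and 27.0 FPKM in abdomen skin and 44.7, 37.3, 32.7 and 53.0 FPKM in abdomen wounds. In the back they were 28.4, 23.8, 33.7 and 17.6 FPKM in skin and 43.4, 33.8, 48.8 and 38.1 FPKM in wounds, and in the cheek 38.2, 42.1, 21.7 and 17.2 FPKM in skin and 37.9, 68.3, 32.1 and 34.2 FPKM in wounds. Cheek mouse 1 showed no increase, and the cheek groups overlapped, while in the abdomen and back the wound values lay above all the unwounded ones. The effects of 0.64, 0.68 and 0.55 passed the test at all 3 sites (adjusted p = 0.0121, 0.00545 and 0.0209), and Irf1 was the single member whose effect did not run from abdomen over back to cheek. Stat2 and Irf9, partners in the ISRE-binding complex, rose on average by 1.06 and 0.74. Irf9 passed the test at every site, and Stat2 missed it in the cheek (adjusted p = 0.06).

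The nucleic acid sensors rose in the abdomen (4 of 4) and, apart from Ifih1, in the back, and Dhx58 alone rose in the cheek. Dhx58, a helicase related to the viral RNA sensor RIG-I, had a mean of 1.69 ± 0.23 FPKM (SD, n = 4) in abdomen skin and 18.0 ± 11.8 FPKM in abdomen wounds, with effects of 2.80, 1.79 and 1.23 at the 3 sites. Zbp1, a sensor of left-handed nucleic acid that can start cell death, followed with 2.52 and 1.65 in the abdomen and back, and its cheek value of 1.11 did not pass (adjusted p = 0.0784). Ddx58, which encodes RIG-I, averaged 1.09 over sites. Ifih1, the sensor of long double-stranded RNA, was among the 4 weakest members, with 0.69 ± 0.20 (SE) averaged over sites (adjusted p = 0.0112). Its back value of 0.60 missed the threshold (adjusted p = 0.186).

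The oligoadenylate synthetase family had the highest median effect of all role groups at each site (3.08, 1.88 and 1.27). These enzymes make oligoadenylates that activate the ribonuclease RNase L, and the OASL proteins are relatives that act on RNA sensing. All 6 genes lie on chromosome 5 between 114896926 and 120907544 (GRCm38.p6), all 6 rose in the abdomen and back, and Oas1a, Oas2, Oas3 and Oasl2 rose in the cheek. Oas1a stood at 2.39, 3.8, 3.81 and 3.40 FPKM in abdomen skin and 40.2, 9.28, 40.1 and 76.4 FPKM in abdomen wounds. It stood at 3.43, 3.47, 12.4 and 1.76 FPKM in skin and 34.4, 16.1, 86.0 and 5.06 FPKM in wounds of the back, and at 4.26, 6.46, 3.51 and 5.99 FPKM in skin and 8.73, 22.4, 14.7 and 17.1 FPKM in wounds of the cheek. Wounds and skin were fully separated in the abdomen and cheek, and in the back the wound of mouse 4 lay within the range of the skin. The effects of Oas1a were 3.13 ± 0.44 (SE), 2.31 ± 0.44 and 1.51 ± 0.44 (adjusted p = 0.000603, 0.00182 and 0.0217).

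Oas3, which was at most 1.26 FPKM in all unwounded libraries except back mouse 3 at 2.69 FPKM, reached 10.2, 2.10, 8.04 and 22.4 FPKM in abdomen wounds, 9.10, 2.55, 25.8 and 0.93 FPKM in back wounds and 1.64, 5.52, 4.01 and 3.53 FPKM in cheek wounds. The effect averaged over sites was 2.2 ± 0.26 (SE) for Oas3 and 2.15 ± 0.26 for Oasl2, next to 2.32 ± 0.25 for Oas1a. Oas2 averaged 1.59, Oasl1 2.09 and Oas1g 2.01. The stretches printed for Oas1a and Oas1g are nearly the same sequence, slightly offset. Reads of such close copies can be split between them by the estimation step, so the separate values of Oas1a and Oas1g are uncertain, as are those of Ifit3 and of the Gbp genes.

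The IFIT and Mx genes rose in every case in the abdomen (5 of 5), in 2 of 5 cases in the back (Mx1 and Mx2) and in none in the cheek, where 0 of 5 also passed an unadjusted p of 0.05 with limma. In the back 40% of this group was called, against 45.9% of all tested genes called and 28% called higher. IFIT proteins bind viral RNA, and Mx proteins are dynamin-like GTPases that trap viral nucleocapsids. Ifit3 had the largest spread of any member in abdomen and in back wounds. Its levels were 1.96, 0.48, 2.54 and 3.45 FPKM in abdomen skin and 57.2, 1.60, 13.5 and 87.3 FPKM in abdomen wounds. The back gave 6.11, 6.01, 27.4 and 3.00 FPKM in skin and 27.9, 9.43, 125 and 1.41 FPKM in wounds, and the cheek 9.70, 7.72, 7.69 and 2.65 FPKM in skin and 8.13, 10.2, 11.7 and 5.27 FPKM in wounds. The highest and lowest back wounds differed 88.8-fold and the abdomen wounds 54.6-fold, back mouse 4 and cheek mouse 1 had less Ifit3 in the wound than in the skin, and skin and wound values overlapped at every site. The Ifit3 effect was 3.08 ± 0.61 (SE) in the abdomen (adjusted p = 0.00419), 1.00 ± 0.61 in the back (adjusted p = 0.207) and 0.40 ± 0.61 in the cheek (adjusted p = 0.646).

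Ifit1 had effects of 3.38, 1.67 and 0.55, and Ifit2 of 2.11, 1.02 and 0.52, of which the abdomen values passed. Mx1 and Mx2 were the members of lowest mean level. Mx1 stood at 0.32, 0.69, 0.38 and 0.37 FPKM in abdomen skin and 13.0, 1.03, 4.37 and 20.3 FPKM in abdomen wounds, and Mx2 at 0.25, 0.58, 0.72 and 0.49 FPKM in skin and 7.83, 0.80, 3.77 and 11 FPKM in wounds. For both genes all 4 abdomen wounds lay above the 4 skin samples, mouse 2 only narrowly. Their effects were 2.86 and 2.27 in the abdomen and 1.88 and 1.59 in the back, understated by the pseudocount at such levels.

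Isg15, the ubiquitin-like protein that is conjugated to other proteins after interferon, had the highest wound effect of all 41 genes when averaged over sites. In the abdomen it stood at 6.20, 8.74, 7.74 and 7.06 FPKM in skin and 171, 15.4, 108 and 242 FPKM in wounds. In the back it stood at 5.97, 7.79, 33.8 and 5.05 FPKM in skin and 111, 43.2, 310.4 and 10.5 FPKM in wounds, and in the cheek at 12.6, 23.8, 10.1 and 12.0 FPKM in skin and 30.9, 74.0, 45.1 and 39.3 FPKM in wounds. All 12 wounds were higher than the skin of the same mouse, the groups did not overlap in the abdomen and cheek, and the wound of back mouse 4 remained below the skin of back mouse 3. The effect was 2.63 ± 0.36 (SE) averaged over sites (adjusted p = 0.00011), with 3.54 in the abdomen, 2.67 in the back and 1.67 in the cheek. The cheek value missed the threshold (adjusted p = 0.0608), although all 4 cheek mice moved up.

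Usp18, the protease that removes ISG15 from its targets and also restrains signalling at the interferon receptor, was the exception among the 41. Its levels were 9.48, 11.7, 11.6 and 10.9 FPKM in abdomen skin and 36.7, 7.04, 23.9 and 49.5 FPKM in abdomen wounds. They were 7.83, 7.68, 14.6 and 11.2 FPKM in skin and 20.9, 6.78, 50.5 and 4.59 FPKM in wounds of the back, and 8.09, 10.5, 8.09 and 3.97 FPKM in skin and 4.86, 9.31, 6.51 and 7.04 FPKM in wounds of the cheek. The gene was higher in the wound of 6 mice and lower in the other 6, and the strong increases were those of abdomen mice 1, 3 and 4 and back mice 1 and 3. The mean effect of 0.48 ± 0.31 (SE) had a 95% interval of -0.20 to 1.15 and did not pass (adjusted p = 0.195). In the abdomen the effect was 1.09 (adjusted p = 0.138), and it passed there when mouse 2 was left out.

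**Figure D3:**
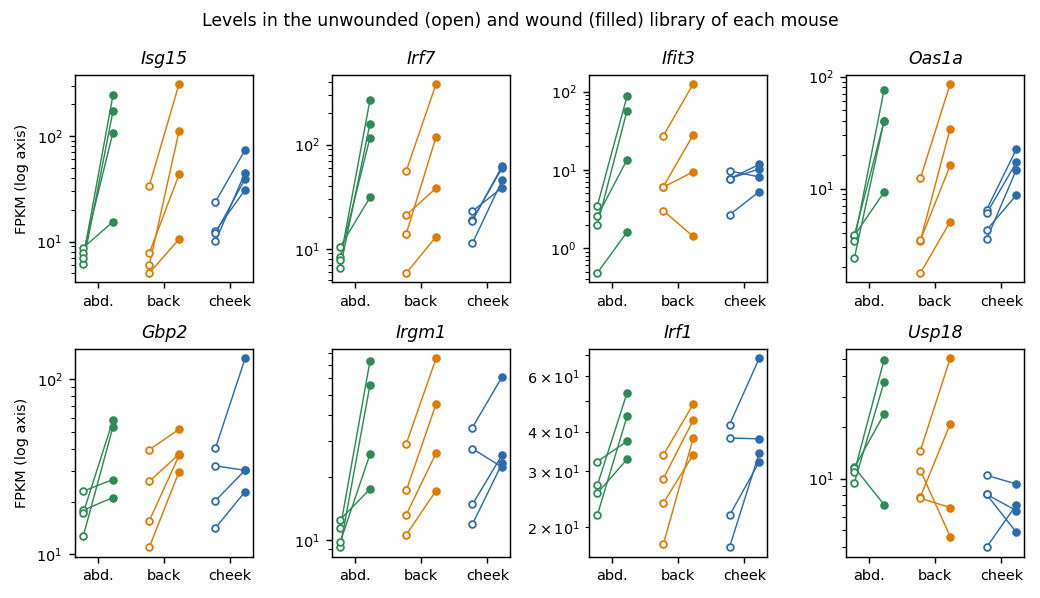
Levels of 8 members in FPKM (y axis, log scale) by site (x axis; abd., abdomen), with the unwounded (open) and wound (filled) library of each mouse joined. For Isg15 and Irf7 every line rises, and for Usp18 6 rise and 6 fall.

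All 11 of the other antiviral effectors rose in the abdomen, 9 rose in the back, and Bst2 and Trim30a rose in the cheek. In the cheek 18.2% of this group was called, against 36.6% of all tested genes called and 19.7% called higher. Bst2, the membrane protein tetherin that holds budding virions at the cell surface, was abundant in skin and in wounds. It stood at 34.9, 31.2, 43.0 and 24.2 FPKM in abdomen skin and 162, 53.7, 177 and 274 FPKM in abdomen wounds, at 27.6, 40.9, 62.4 and 19.2 FPKM in skin and 120.0, 72.6, 372 and 55.2 FPKM in wounds of the back, and at 60.1, 32.5, 23.8 and 34.8 FPKM in skin and 78.7, 107, 58.6 and 94.6 FPKM in wounds of the cheek. Wounds and skin did not overlap in the abdomen, and in the back and cheek the lowest wound lay below the highest skin sample. The effects were 2.12 ± 0.39 (SE), 1.75 ± 0.39 and 1.2 ± 0.39, each past the threshold (adjusted p = 0.00265, 0.00434 and 0.0335).

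Rsad2, which encodes the antiviral enzyme viperin, had the fifth highest mean effect, and stood at 0.63, 0.84, 0.90 and 0.47 FPKM in abdomen skin and 22.1, 1.73, 6.67 and 27.4 FPKM in abdomen wounds. Its effect was 3.06 in the abdomen, 2.11 in the back and 1.32 in the cheek, where it missed the threshold (adjusted p = 0.13). Cmpk2, a nucleotide kinase gene close to Rsad2 on chromosome 12, passed in the abdomen (1.96) and had values of 0.68 and 0.17 in the back and cheek (adjusted p = 0.316 and 0.833). The difference between these neighbours was not tested.

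Rtp4, a chaperone of membrane receptors with antiviral activity, was measured in the abdomen at 6.03, 5.90, 6.84 and 6.05 FPKM in skin and 63.1, 15.4, 50.1 and 102 FPKM in wounds. The cheek gave 13.1, 28.1, 10.1 and 9.74 FPKM in skin and 16.2, 45.2, 25.8 and 26.8 FPKM in wounds. Cheek skin lay above abdomen skin in all 4 mice, and all abdomen wounds lay above the abdomen skin. The smallest adjusted p of any member in the abdomen belonged to Rtp4, with an effect of 2.84 ± 0.36 (SE, adjusted p = 0.000304). The effects in the back and cheek were 1.77 and 0.92, the latter not past the threshold (adjusted p = 0.0677).

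Milder effectors included Isg20, an RNA exonuclease, at 0.76 averaged over sites, Eif2ak2, the RNA-dependent kinase that halts translation, at 0.92, Ifi35 at 0.74 and Samd9l at 0.74. Ifi44, Xaf1 and Trim30a, a TRIM family protein, averaged 1.86, 1.2 and 1.29. Each of these 7 genes passed the test for the mean over sites. Parp9 and Parp14, enzymes and binders of ADP-ribose in the interferon response, rose at all 3 sites. Parp14 had effects of 1.28, 1.07 and 0.79, and Parp9 of 1.32, 0.92 and 0.75. Together with Irf1, Irf7, Irf9, Oas1a, Oas2, Oas3, Oasl2, Dhx58, Bst2 and Trim30a they formed the 12 members that rose at every site, where 12% of all tested genes did so.

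The GBP and IRG GTPases, which coat and disrupt the vacuoles of intracellular pathogens and are known as strong targets of interferon-gamma, all rose in the abdomen (7 of 7). Gbp3, Gbp5, Igtp and Irgm1 rose in the back and none passed in the cheek, where the lowest adjusted p was 0.12 and 0 of 7 had an unadjusted limma p under 0.05. Irgm1 stood at 9.19, 12.5, 9.75 and 11.3 FPKM in abdomen skin and 55.9, 17.5, 25.8 and 72.9 FPKM in abdomen wounds. It stood at 17.3, 13.2, 29.1 and 10.6 FPKM in skin and 45.2, 26.2, 75.1 and 17.3 FPKM in wounds of the back, and at 27.5, 34.8, 14.8 and 11.9 FPKM in skin and 22.4, 61.3, 25.7 and 23.4 FPKM in wounds of the cheek. The abdomen groups were separate, those of the back and cheek overlapped, and cheek mouse 1 had less in the wound than in the skin. The Irgm1 effects were 1.75 ± 0.32 (SE), 1.09 ± 0.32 and 0.56 ± 0.32, with adjusted p = 0.196 in the cheek.

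Gbp2 stood at 31.9, 40.1, 20.2 and 14.1 FPKM in cheek skin and 30.1, 131, 30.2 and 22.8 FPKM in cheek wounds, and cheek mouse 2 was far above the others. Gbp7 was the weakest GTPase gene, with 0.64 ± 0.16 (SE) averaged over sites (adjusted p = 0.00507) and 0.57 in the back (adjusted p = 0.122). Iigp1 had the largest fall of any member in a single mouse other than Usp18, by 1.01 in cheek mouse 1, from 42.2 FPKM in skin to 20.7 FPKM in the wound. Over the 7 genes the median effect was 1.55, 1.06 and 0.56 at the 3 sites, against 3.08, 1.88 and 1.27 over the 6 oligoadenylate synthetase genes.

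**Figure D4:**
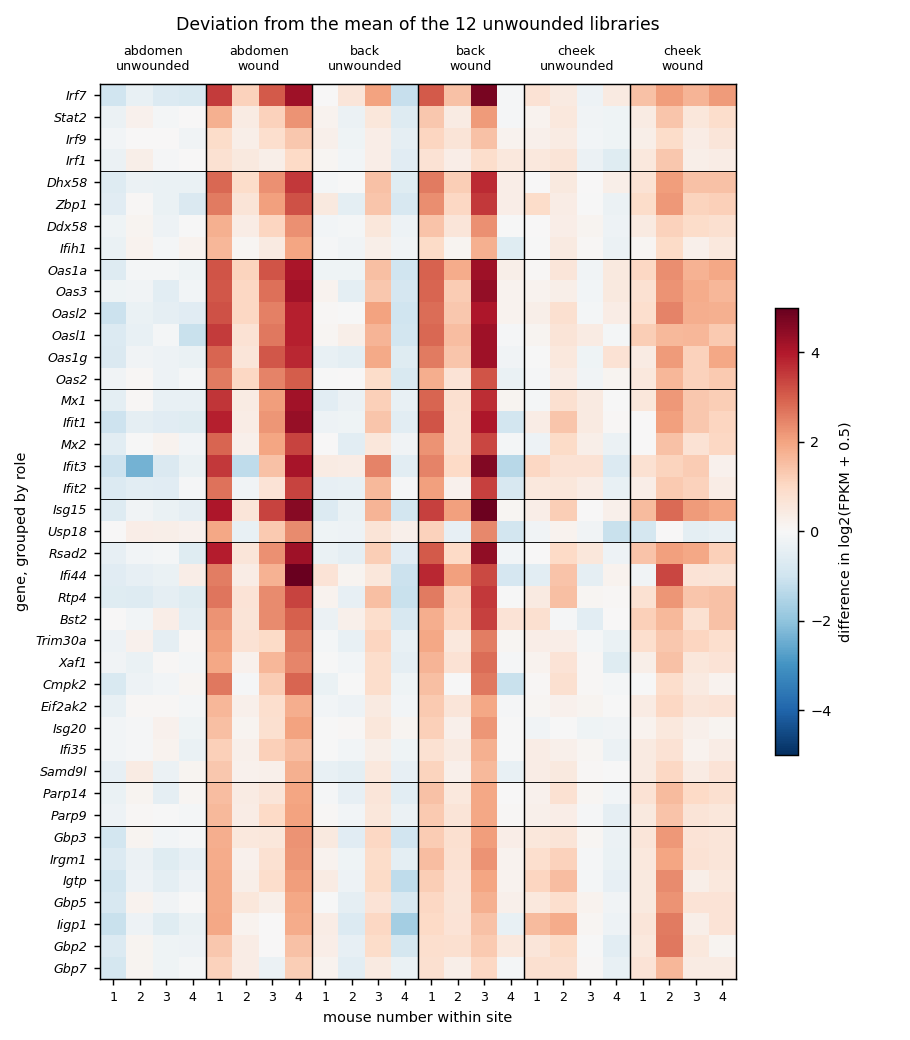
Each cell gives the difference in log2(FPKM + 0.5) between a library and the mean of the 12 unwounded libraries, with genes in rows grouped by role and libraries in columns by site, state and mouse. Whole columns are dark or pale together, as in abdomen wounds, where mouse 4 was highest for 40 genes and mouse 2 lowest for 36.

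Whether the response itself differed between sites was tested on the differences between the wound effects. The effect ran from abdomen over back to cheek for 40 of the 41 genes, yet no member passed the limma F test of the 3 effects, in which 0.0208% of all tested genes were called. The unadjusted p lay under 0.05 for 8 members, and the lowest adjusted p was 0.266, for Rtp4, followed by 0.324 for Ifit3 and 0.345 for Irf7. In pairwise tests of the effects, the unadjusted limma p was under 0.05 for 3 members (back against abdomen), 17 (cheek against abdomen) and 0 (cheek against back). No share of all tested genes at an unadjusted p under 0.05 is given for the F test, these pairs or the site comparisons below. After adjustment 0 members passed in any pair, with 0%, 0.00693% and 0.0277% of all tested genes called in the same order. These shares over all genes rested on abdomen mouse 1, without which 2.19% of genes were called in the F test, 4.15% between back and abdomen and 1.45% between cheek and abdomen, with 0 members among them. The largest difference of Rtp4 was -1.91 ± 0.51 (SE) for cheek minus abdomen, with a 95% interval of -3.05 to -0.78, and the same difference was -2.83 ± 1.02 for Ifit1 with an interval of -5.08 to -0.58. These intervals are wide, and because the 41 genes moved together within a mouse, their shared order is not 40 separate observations.

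In unwounded skin the 3 sites were compared on 12 libraries (13956 genes tested). No member passed in any pair, where 4.92% of tested genes did in at least 1 pair (2.67% between back and abdomen, 2.57% between cheek and abdomen, 1.05% between cheek and back), and the unadjusted limma p was under 0.05 for 1 member in back against abdomen, 3 in cheek against abdomen and 1 in cheek against back. Ifit1 was at 0.78, 1.43, 1.27 and 1.24 FPKM in abdomen skin, 1.73, 1.79, 6.43 and 1.34 FPKM in back skin and 2.94, 6.48, 3.14 and 2.26 FPKM in cheek skin. The cheek values all lay above the abdomen values, with a difference of 1.25 ± 0.39 (SE, adjusted p = 0.111; exact two-sided permutation p = 0.0286, the smallest that 4 against 4 allows). Ifit3 differed by 1.79 for back minus abdomen (adjusted p = 0.161), and Irgm1 by 0.90 for cheek minus abdomen (adjusted p = 0.199). Isg20 differed by -0.33 for cheek minus back (adjusted p = 0.192), and Samd9l differed by 0.41 in the same pair (adjusted p = 0.325). Cheek and abdomen skin did not overlap for 8 members, Ifit1, Isg15, Irf7, Oas3, Oasl1, Oasl2, Dhx58 and Rtp4, each higher in the cheek, against 10.5% of all tested genes in either direction. Cheek and back skin did not overlap for Isg20 alone (14.3% of all tested genes), and back and abdomen skin for none (13%). Without back mouse 3, Ifit1 passed between cheek and abdomen skin (adjusted p = 0.0338), and it was the single member to do so.

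Among wounds 14023 genes were tested. No member passed, where 12.2% of tested genes did in at least 1 pair (1.27%, 10.8% and 2.5% for the pairs in the same order), and the unadjusted limma p was under 0.05 for Usp18 alone, in cheek against abdomen. That difference was -1.74 ± 0.73 (SE, adjusted p = 0.133), and the one between cheek and back was -0.97 (adjusted p = 0.434). For back against abdomen the members with the smallest p were Oas2, at -0.97 (adjusted p = 0.536), and Cmpk2, at -0.93 (adjusted p = 0.644). Ifi35 differed by -0.62 between cheek and abdomen wounds (adjusted p = 0.256) and Isg20 by -0.62 between cheek and back wounds (adjusted p = 0.453). The values of no member were separate between any pair of wound groups, against 9.04%, 18.8% and 21% of all tested genes for back against abdomen, cheek against abdomen and cheek against back.

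Libraries of a group differed widely in these genes, and the genes differed together. Within groups the standard deviation of a member on the log2 scale had a median of 0.54 in unwounded skin and 0.97 in wounds, against 0.21 and 0.17 over all tested genes. It was 1.00 in abdomen wounds, 1.22 in back wounds and 0.50 in cheek wounds. After the group means were removed, the first principal component held 73.3% of the variance of the 41 genes in unwounded skin and 91.7% in wounds, against 28.6% and 23.4% for all tested genes. The median correlation between 2 members over the 12 libraries of a state was 0.73 in skin and 0.93 in wounds, against 0.02 and 0.04, as a description over libraries that all genes share. Bst2 in skin and Gbp2 in wounds were least like the rest, with medians of 0.51 and 0.57.

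A few mice carried this spread. In abdomen wounds mouse 4 had the highest value for 40 of 41 members and mouse 2 the lowest for 36. In back wounds mouse 3 was highest for 40 and mouse 4 lowest for 40, and in cheek wounds mouse 2 was highest for 38. The summed level of the 41 genes was 1640, 457, 1059 and 2406 FPKM in the wounds of abdomen mice 1 to 4, 1211, 603, 2746 and 363 FPKM in those of the back, and 543, 1214, 604 and 650 FPKM in those of the cheek. In unwounded skin the sums were 239, 317, 296 and 275 FPKM in the abdomen, 345, 295, 680.0 and 210 FPKM in the back, and 495, 561, 315 and 287 FPKM in the cheek. Back mouse 3 was the highest of its group in both skin and wound, back mouse 4 the lowest in both, and cheek mouse 2 the highest in both, whereas in the abdomen mouse 2 had the highest skin sum and the lowest wound sum. The wound of back mouse 4 lay below the skin of back mouse 3.

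The GTPase genes departed from the other 34 members in some wounds. Over the 12 wound libraries the median correlation was 0.94 between GTPase genes, 0.96 between the other members and 0.80 across the division. In cheek mouse 2 the mean deviation was 1.75 for the GTPase genes and 0.88 for the others, while in abdomen mouse 3 it was -0.16 and 0.98, and in back mouse 3 it was 1.21 and 2.36. Cheek mouse 2 was thus the highest of all 12 wounds for the GTPase genes, and abdomen mouse 4 and back mouse 3 were the highest for the rest. In skin the corresponding medians were 0.93, 0.72 and 0.73.

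**Figure D5:**
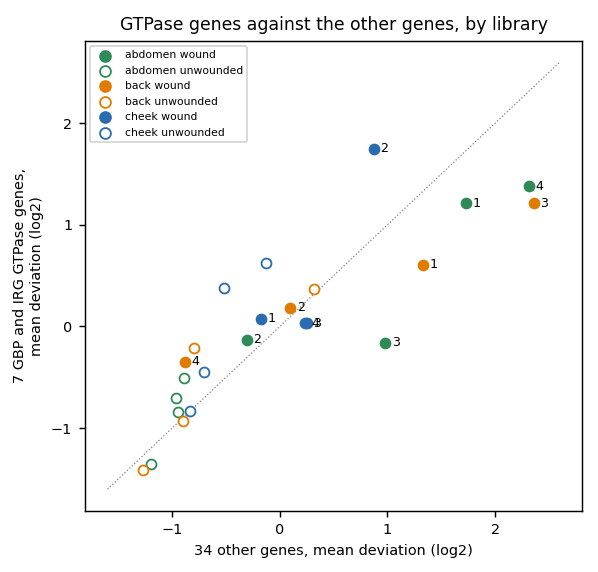
Mean deviation of the 7 GBP and IRG GTPase genes (y axis) against that of the other 34 genes (x axis), both in log2(FPKM + 0.5) from the 24-library mean, for each of 24 libraries. Filled points are wounds with the mouse number, open points are unwounded skin, and the dotted line marks equality. Cheek wound 2 lies above the line at 1.75, as do cheek wound 1, abdomen wound 2 and back wounds 2 and 4. Abdomen wounds 1, 3 and 4, back wounds 1 and 3 and cheek wounds 3 and 4 lie below it.

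Markers of leukocytes were measured beside these values. Averaged over sites, 62.7% of all tested genes were called and 33.3% were called higher. Of 8 tested neutrophil markers 7 rose and 1 fell in wounds averaged over sites. The sum of the 9 listed genes went from 18.1 to 71.2 FPKM in unwounded libraries to 361 to 2401 FPKM in wounds. Ly6g was at 0 in all abdomen and back skin libraries. In abdomen wounds 1 to 4 the neutrophil sum was 2401, 1215, 713 and 361 FPKM. It was 1546, 1329, 1047 and 1170 FPKM in back wounds and 1013, 827.5, 1383 and 563.1 FPKM in cheek wounds. All 9 monocyte and macrophage markers rose, and their sum lay between 198 and 340 FPKM in skin and between 612 and 1136 FPKM in wounds. It was 748, 612, 709 and 766 FPKM in abdomen wounds and 905, 780, 1136 and 824 FPKM in back wounds. Cheek wounds gave 770.6, 849, 975.5 and 663.6 FPKM. The sums of the T and NK cell markers lay between 21.7 and 66.7 FPKM in skin and between 33.0 and 74.9 FPKM in wounds, highest in back mouse 3. On the log2(FPKM + 0.5) scale, where each gene counts alike, the mean deviation of these 9 markers was higher in wounds. It was -0.018 in skin and 0.429 in wounds of the abdomen, -0.435 and 0.337 in the back, and -0.44 and 0.126 in the cheek. Of 6 plasmacytoid dendritic cell markers 5 rose and 1 fell, and Siglech among them averaged 3.95, 3.25 and 3.99 FPKM in abdomen, back and cheek wounds and at most reached 4.95 FPKM. Most of that list's sum came from Ly6d, which keratinocytes also express. The 4 B cell markers summed to at most 3.31 FPKM in any library. Markers of skeletal muscle, a tissue below the skin, summed to between 444 and 20090 FPKM in unwounded libraries, lowest in abdomen mouse 2, and to between 1579 and 6056 FPKM in wounds. The part of these cells in the spread among mice was not tested.

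The remaining genes of the pathway were measured in the same libraries. Of 11 interferon genes looked up, Ifnb1, Ifnk, Ifne, Ifng and Ifnl2 were in the table and 0 passed the filter on low values. Ifng, the gene of interferon-gamma, reached 0.95, 0.10, 0.36 and 0.86 FPKM in abdomen wounds, 0.05, 0.16, 0.48 and 0.10 FPKM in back wounds, and 0.29, 0.60, 0.10 and 0.20 FPKM in cheek wounds. Its highest value fell in abdomen mouse 1, back mouse 3 and cheek mouse 2. The summed level of the 41 genes was highest in the wounds of abdomen mouse 4, back mouse 3 and cheek mouse 2. Back mouse 1 had less Ifng (0.05 FPKM) than back mouse 4 (0.10 FPKM), with a summed level of 1211 against 363 FPKM. These Ifng levels were too low for a test, and a relation to the 41 genes was not tested. Ifnk, a type I interferon of keratinocytes, was listed at 0 in 12 libraries and reached 0.95 FPKM in the wound of abdomen mouse 3. Ifnb1 was listed at 0 in 23 libraries.

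Of 24 receptor and signalling genes, 14 rose in the abdomen, 19 in the back and 18 in the cheek, and 1 fell at each site. Over all tested genes 32.9%, 45.9% and 36.6% were called at these sites, and 16.9%, 28% and 19.7% were called higher. Irf8, a factor of the myeloid lineage, rose by 1.27, 1.53 and 1.38, and the endosomal sensors Tlr9 and Tlr7 by 1.67 and 1.13 averaged over sites. For Irf8 and Tlr7 the effect was highest in the back. In the limma F test of the wound effects between sites 0 of the 24 genes passed (3 at an unadjusted p under 0.05, lowest adjusted p 0.228). None passed a pairwise limma test of the wound effects (lowest adjusted p 0.135). Between the levels of wounds, 2 of the 24 were called for back against abdomen (1.27% of all tested genes) and 2 for cheek against abdomen (10.8%). In each of these pairs 1 was higher and 1 lower. A second list of 48 interferon-stimulated genes outside the 41 gave 42 risen in the abdomen, 28 in the back, 13 in the cheek and 42 averaged over sites, with none fallen. Averaged over sites, 62.7% of all tested genes were called and 33.3% were called higher. In the cheek 27.1% of the list was called, against 36.6% of all tested genes called and 19.7% called higher. The strongest members of this second list were Slfn1, at 2.77 averaged over sites, the chemokine gene Cxcl10 at 2.33, Phf11b at 1.99 and Ifit1bl1 at 1.93.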

How the data were processed

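Whole-skin RNA of 12 mice (24 libraries) was sequenced by the authors' provider with paired reads of 100 bases. Per the labels and methods, reads were mapped to GRCm38/mm10 with HISAT2, aligned to transcripts with Bowtie2 (2.2.5) and summarised with RSEM (1.2.12), and the deposited values are FPKM per gene, rounded to 2 decimals, made by the authors. Other deposited columns hold the authors' DESeq2 comparisons (log2 fold changes and adjusted p-values) and were not used. FPKM keep no read totals, so the depth of each library is unknown; steps in the low values of 144 genes put relative depth between 0.889 and 1.05.

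A pseudocount of 0.5 was added before log2 transformation, and limma (3.58.1, R 4.3.3, statmod 1.5.0) was run with trended and robust variance moderation on those genes that reached 0.5 FPKM in 4 or more of the libraries fitted. Wound effects were fitted on all 24 libraries with mouse as a block. The labels give skin and wound of 1 animal the same number. Within mice, the mean correlation of deviations from the group mean was 0.32, 0.35 and 0.28 (abdomen, back, cheek). The lowest single value was -0.03, in the abdomen. Between mice the means were -0.11, -0.12 and -0.10, which follow from the within-mouse values once group means are removed and add no separate evidence. Sites were compared within the 12 libraries of 1 state. P-values were adjusted (Benjamini-Hochberg) over all tested genes, threshold 0.05, and the code was tested on simulated data. Genes given in full were the 6 highest and 4 lowest by mean effect, the smallest p in the F test (3) and in each site pair (2), and the highest and lowest levels (2 each). Others were added for their role or spread after their values were seen. The members and lists were chosen with earlier results of these data known. Alternatives covered the pseudocount, filter, scaling, moderation, block, libraries fitted and each mouse left out. Sequences came from RefSeq tables (GRCm38.p6).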

Additional observations from a re-analysis of the deposited data

Results flagged for a closer look

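Of 246 groups of 4 values (41 genes in 6 groups), 14 (5.69%) held a sample whose gap to its nearest neighbour took up more of the group's range than Dixon's 95% limit for 4 values allows, which chance passes in about 1 of 20 groups. Since the genes move together, these are not 14 separate events. Back mouse 3 gave 7 of them in unwounded skin, each on the high side. The values were 6.43 FPKM for Ifit1, 11.51 for Ifit2, 4.68 for Oas1g, 2.1 for Mx1, 2.99 for Rsad2, 8.5 for Samd9l and 8.42 for Eif2ak2. Cheek mouse 2 gave 6 in wounds, again on the high side, at 130.91 FPKM for Gbp2, 28.14 for Gbp3, 18.56 for Gbp5, 73.8 for Igtp, 61.26 for Irgm1 and 27.56 for Parp9, so that 5 of the 6 were GTPase genes. The last was Rtp4 at 6.84 FPKM in the unwounded skin of abdomen mouse 3.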

How the results depend on the processing

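With the mouse as a block left out (no replicate block), 20 members rose in the back and 0 in the cheek (41.5% and 31.7% of all tested genes called). With each site fitted on its own 8 libraries, 17 rose in the abdomen, 32 in the back and 26 in the cheek (26.1%, 45.3% and 30.4% of all tested genes called), from fewer samples and a spread estimated within the site, and the order of the 3 counts turned over. Leaving out each mouse gave 30 to 41 members in the abdomen (30 without mouse 4), 13 to 33 in the back, 0 to 19 in the cheek (19 without abdomen mouse 2), 40 to 41 for the mean over sites, 0 to 1 between sites in unwounded skin, 0 to 0 between sites in wounds and 0 to 0 in the F test. The share of all tested genes called also moved between fits. It was 22.8% in the abdomen without abdomen mouse 4 and 36.1% in the back without back mouse 3. Without abdomen mouse 2 it was 25.7% (abdomen), 44.7% (back), 35.8% (cheek) and 60.5% (mean over sites). In the cheek fits with 0 members it was 24.2%, 26.9% and 35.2%. The share of member variance on 1 component lay between 60% (without back mouse 3) and 76.9% in skin and between 88.8% and 94.4% in wounds. Other pseudocounts, filters, scalings and moderation kept every count of members within 1.5 times, and a term for the mouse number in the site comparisons also left 0 members called.

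Of the single-gene wound effects (the mean over sites of each member, and each site for the genes given in full), 881 kept their side of the threshold under the alternatives, 32 lost it and 9 gained it, and with a mouse left out 1214 kept it, 58 lost it, 10 gained it and 2 turned sign. Both of the latter were Usp18, in the back (-0.000511 without back mouse 3 to 0.983 without back mouse 4) and in the cheek (-0.378 without cheek mouse 4 to 0.1 without cheek mouse 1). FPKM without read counts give no counting error, so the depth behind these values is not known.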

Other observations

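The genes of MHC class I presentation, which interferon-gamma also induces, were measured as a list of 14. Averaged over sites 12 rose and none fell, where 62.7% of all tested genes were called and 33.3% were called higher. By site 4 rose in the abdomen, 11 in the back and 5 in the cheek (28.6%, 78.6% and 35.7% of the list). Over all tested genes 32.9%, 45.9% and 36.6% were called there, and 16.9%, 28% and 19.7% were called higher. The abdomen and cheek counts were thus near the share called in either direction and above the share called higher. Their median effect was 0.31, 0.55 and 0.36 at these sites. For the wound effects, 0 of the 14 passed the limma F test of the site difference (0 at an unadjusted p under 0.05, lowest adjusted p 0.458). None passed a pairwise test of the wound effects either. Between cheek and abdomen levels, 1 of the 14 was called lower in the cheek in unwounded skin (limma adjusted p = 0.0366, 2.57% of all tested genes called). In wounds 1 was also called lower in that pair (limma adjusted p = 0.0198, 10.8%). Psmb10, a subunit of the immunoproteasome, was the strongest, at 0.81 averaged over sites (limma adjusted p = 7.72e-05), followed by Psmb8 at 0.57, Psmb9 at 0.55 and the peptide transporter gene Tap1 at 0.52.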
